A study of Mus musculus with 2 samples.

Results

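Molecular chaperones bind unfolded or newly made proteins and help them fold, refold or reach the enzymes that destroy them. The set described here holds the heat shock protein families Hsp70, Hsp110, Hsp90 and small Hsp, the DnaJ co-chaperones, the BAG co-chaperones, the chaperonins, and the folding enzymes of the endoplasmic reticulum (ER). Members were taken by gene symbol from the probe sets that carry a single symbol, which gave 100 probe sets and 89 genes among 23370 genes in all. They were sorted by the compartment in which each protein works, with 50 genes of the cytosol and nucleus, 22 of the ER, 7 of mitochondria and 10 of other or unassigned places.

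Each compartment has its own folding machinery. In the cytosol, DnaJ proteins hand clients to Hsp70, exchange factors of the Hsp110 and BAG families release them, and Hsp90 and the ring-shaped chaperonin CCT finish selected ones such as kinases, actin and tubulin. In the ER, BiP, Grp94, the lectins calnexin and calreticulin, and the disulphide isomerases act on secreted and membrane proteins, and the unfolded protein response adjusts their amounts. In mitochondria, mortalin pulls proteins in and the Hsp60 and Hsp10 chaperonin folds them.

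Both groups were ES-D3 cells, an established line of mouse embryonic stem cells of strain 129S2/SvPas (CRL-1934), seeded at 20000 cells per square centimetre. Culture lasted 3 days. The medium held 15% serum and LIF at 1000 U, leukaemia inhibitory factor being the cytokine that keeps such cells undifferentiated. One group grew in a microchamber, a microfluidic chamber with minimal perfusion, and the other on a 6-well plate. The comparison asks how culture in the chamber alters gene expression. Total RNA from each was put on 1 Affymetrix Mouse Gene 2.0 ST array, so the study has 2 arrays, no replicate and no test. All values come from a single line with 1 culture per vessel, so the vessel and the individual culture cannot be told apart.

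Values are log2 RMA values, and each difference is the microchamber value minus the 6-well plate value in log2 units, so that 1 unit is 2-fold. All 8 markers of pluripotent cells reached the median level of annotated probe sets on at least 1 array, lying between 6.27 and 12.81 in the microchamber and between 6.57 and 13.08 on the plate. Their median difference was 0.21 with 2 below 0, and Tdgf1 differed most, at -0.82. Of 10 fibroblast or feeder cell markers, 5 reached that level. All 10 lay between 5.15 and 7.48 in the microchamber and between 5.14 and 7.97 on the plate, with a median difference of -0.11. The 4 mesoderm markers all lay below 0 with a median of -0.21. The 4 neural markers had a median of 0.00, with Nes at -0.70 and Tubb3 at 0.43, and the 5 endoderm markers one of -0.01. The part of these markers in the differences below was not tested. For scale, 797 genes had 2 distinct probe sets past the signal filter, and the difference of a single probe set varied within a gene with a standard deviation of 0.21. That value measures spread within this pair of arrays, and the spread between cultures is unknown.

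Chaperone genes were mostly a little lower in the microchamber, more often so for those of the cytosol than for those of the ER. Of the 89 genes, 59 lay below 0 and 30 above, with a median difference of -0.11. A gene passed the signal filter when its higher value reached the array's 20th percentile of annotated probe sets, 5.17 in the microchamber and 5.16 on the plate. This left 85 chaperone genes, each past it on both arrays, and 19180 genes in all, of which 52.3% lay below 0 with a median of -0.01. The 4 chaperone genes under the filter, Dnajb3, Dnajb7, Dnajc5g and Cct8l1, differed by -0.08 to 0.05.

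Large differences were few. Of the 89 genes, none was at least 2-fold higher, where 0.344% of all genes past the filter were. The oxidase Ero1l and the small heat shock protein Hspb8 were at least 2-fold lower, where 0.443% of all genes were. At 0.5 log2 units, 4 were higher (3.59% of all genes) and 5 were lower (4.24%), close to the shares among all genes. At 0.2 log2 units, a threshold chosen after seeing the data, 14 were higher (15.9% of all genes) and 30 were lower (19.5%). These 30 are 33.7% of the chaperone genes.

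The compartments differed in this count. Of the 50 genes of the cytosol and nucleus, 24 were lower by at least 0.2 and 4 were higher, and 38 lay below 0 with a median of -0.18. Of the 22 ER genes, 2 were lower by at least 0.2 and 6 were higher, and 11 lay on each side of 0 with a median of 0.01. The 7 mitochondrial genes had a median of -0.16 with 5 below 0, and the 10 genes of other or unassigned places a median of -0.03 with 5 below 0. With 1 array per group the difference between compartments has no test. Most chaperone genes were well expressed, and genes at or above the median level were lower by at least 0.2 in 26.9% of cases and higher in 21.7%.

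**Figure D1:**
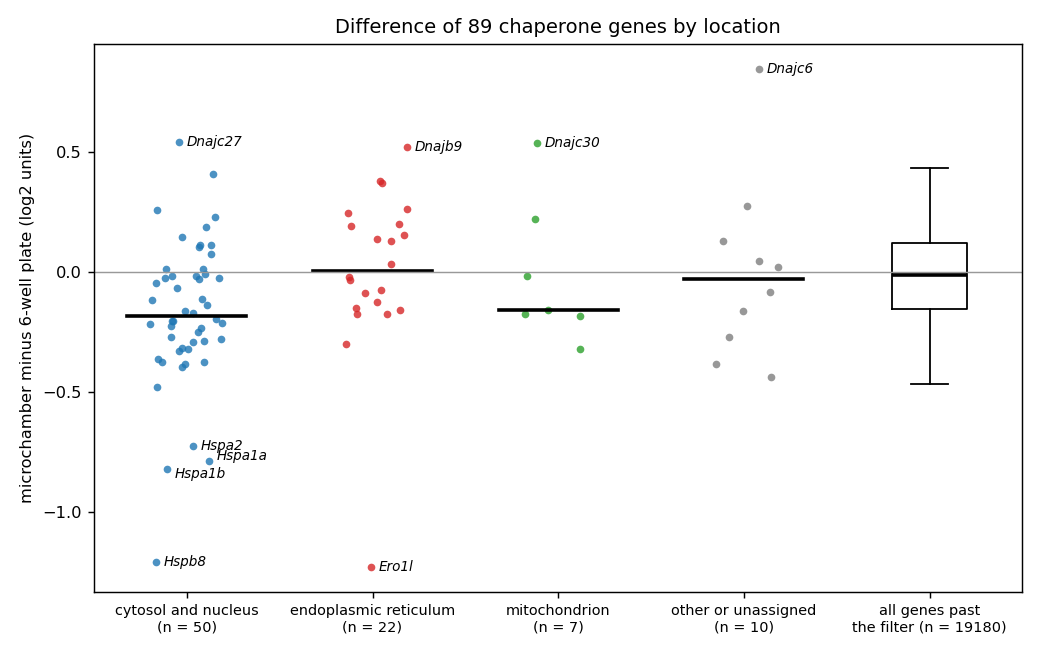
Difference of each of the 89 chaperone genes (microchamber minus 6-well plate, log2 units) by compartment, with a black line at each median and gene names at 0.5 or more. The box on the right shows the median and quartiles of the 19180 genes past the filter, with whiskers from the 5th to the 95th percentile. The cytosolic median is at -0.18 and the ER median at 0.01.

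Among cytosolic Hsp70 genes, both stress-inducible members and Hspa2 were lower in the microchamber, and the constitutive Hspa8 was almost level. Hspa1b, the inducible Hsp70 made in heat shock, had 6.79 in the microchamber and 7.61 on the plate, which is 1.77-fold lower. Its neighbour Hspa1a had 6.26 in the microchamber and 7.05 on the plate, a difference of -0.79. Hspa2, the Hsp70 that male germ cells need, had 6.21 in the microchamber and 6.93 on the plate, a difference of -0.72. No other Hsp70 gene was 0.5 log2 units apart.

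Hspa1a and Hspa1b are near-identical copies, so their signals cannot be fully told apart. A probe set assigned to both read 5.31 in the microchamber and 5.37 on the plate, close to the signal filter. With this probe set averaged in, Hspa1a lay at -0.42 and no longer reached 0.5 log2 units. It was averaged only into Hspa1a, its first symbol, so Hspa1b was not recomputed with it. Their promoters, shown because these genes define the heat shock response, had the same base at 296 of 300 positions. The window is 250 bases before to 50 after the RefSeq gene start (GRCm38.p6). Capitals mark an exact match to a heat shock element of paired units, GAANNTTC, at positions -104 to -97 from the start. Arrays of such units are bound by the heat shock factor HSF1, and inexact units are left in lower case.
Hspa1b (chr17:34959189-34959488, minus strand): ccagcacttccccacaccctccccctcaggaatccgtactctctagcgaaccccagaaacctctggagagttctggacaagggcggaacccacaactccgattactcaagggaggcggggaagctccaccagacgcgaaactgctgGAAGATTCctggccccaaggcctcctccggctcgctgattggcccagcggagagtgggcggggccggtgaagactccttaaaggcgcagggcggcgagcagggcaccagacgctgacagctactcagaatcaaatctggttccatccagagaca

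Hspa8 (Hsc70), the constitutive Hsp70, had 11.58 in the microchamber and 11.61 on the plate. Its 4 probe sets lay between -0.06 and 0.03, so its sign depended on the probe set. A further probe set shared with Snord14e, a small nucleolar RNA gene, lay at -0.34. Hspa12a and Hspa12b, divergent relatives of Hsp70, lay at -0.17 and 0.15. The testis gene Hspa1l lay at -0.07, with its 2 probe sets at -0.19 and 0.05.

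The Hsp110 proteins, which release clients from Hsp70 by exchanging its nucleotide, went in different directions. Hsph1 (Hsp105) had 10.64 in the microchamber and 10.23 on the plate, which is 1.33-fold higher. Hspa4l had 7.26 in the microchamber and 7.65 on the plate, a difference of -0.39, while Hspa4 was level at 0.01. Of the BAG proteins, which do the same task from another fold, 4 of 6 lay below 0, with a range of -0.22 for Bag4 to 0.19 for Bag5. Bag3, the stress-inducible one and the partner of Hspb8, had 9.12 in the microchamber and 9.02 on the plate, a difference of 0.10.

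Small heat shock proteins hold unfolded clients without using ATP. Of the 7 genes, 5 lay below 0, with a median of -0.25. Hspb8, which works with Bag3 to send misfolded proteins to autophagy, had 7.70 in the microchamber and 8.91 on the plate, and its 2.31-fold lower value was among the largest of the set. Hspb6 had 8.18 in the microchamber and 8.56 on the plate, a difference of -0.38. Hspb11, an intraflagellar transport protein that carries the family name, lay at -0.37. Hspb1 (Hsp25 in mouse) had probe sets at -0.22 and -0.10. Hspb3 and Hspb9 lay above 0, at 0.07 and 0.11. The Hspb8 window is shown because this gene differed most in the cytosol, and its paired heat shock element, in capitals, spans positions 3 to 10 after the start.
Hspb8 (chr5:116422815-116423114, minus strand): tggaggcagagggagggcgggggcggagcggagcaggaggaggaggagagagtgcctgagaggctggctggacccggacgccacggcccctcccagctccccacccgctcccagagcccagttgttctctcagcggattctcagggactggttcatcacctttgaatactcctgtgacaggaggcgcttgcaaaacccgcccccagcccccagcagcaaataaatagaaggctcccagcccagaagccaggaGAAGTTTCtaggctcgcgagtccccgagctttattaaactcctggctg

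All 8 genes placed with the cytosolic chaperonin CCT were lower in the microchamber. Cct6a and Cct6b, versions of the same subunit, were both counted. The ninth Cct gene of the set, the CCT-like Cct8l1, was under the signal filter at 0.05 and was left unassigned after its values were seen. CCT subunits form a double ring in which actin and tubulin fold. The differences of the 8 genes ran from -0.38 to -0.20, with a median of -0.29 and a standard deviation across genes of 0.06. The 2 probe sets of Cct6a alone lay at -0.36 and -0.22, across most of that range. Cct3 had 10.97 in the microchamber and 11.35 on the plate, the widest gap of the ring. Cct2 had 12.38 in the microchamber and 12.58 on the plate, the narrowest. The others were Cct6b at -0.36, Cct5 at -0.32, Cct6a and Cct7 at -0.29, Cct4 at -0.27 and Cct8 at -0.22. Cct6b was dim, with 5.57 in the microchamber and 5.93 on the plate, below the median level of annotated probe sets on both arrays. Tcp1, the subunit whose symbol falls outside the naming rule, had 9.30 in the microchamber and 9.59 on the plate, a difference of -0.29. Single gaps of this size are close to the 0.21 seen among probe sets of a gene, and of the 4795 genes with the highest mean level, where all but Cct6b lie, 25.2% were lower by at least 0.2. In the level range of Cct6b, the share was 18.2%. The 8 Cct genes, Cct6b included, are among the 24 cytosolic genes lower by at least 0.2. Among cytosolic genes past the filter the median was -0.13 without them and -0.20 with them.

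**Figure D2:**
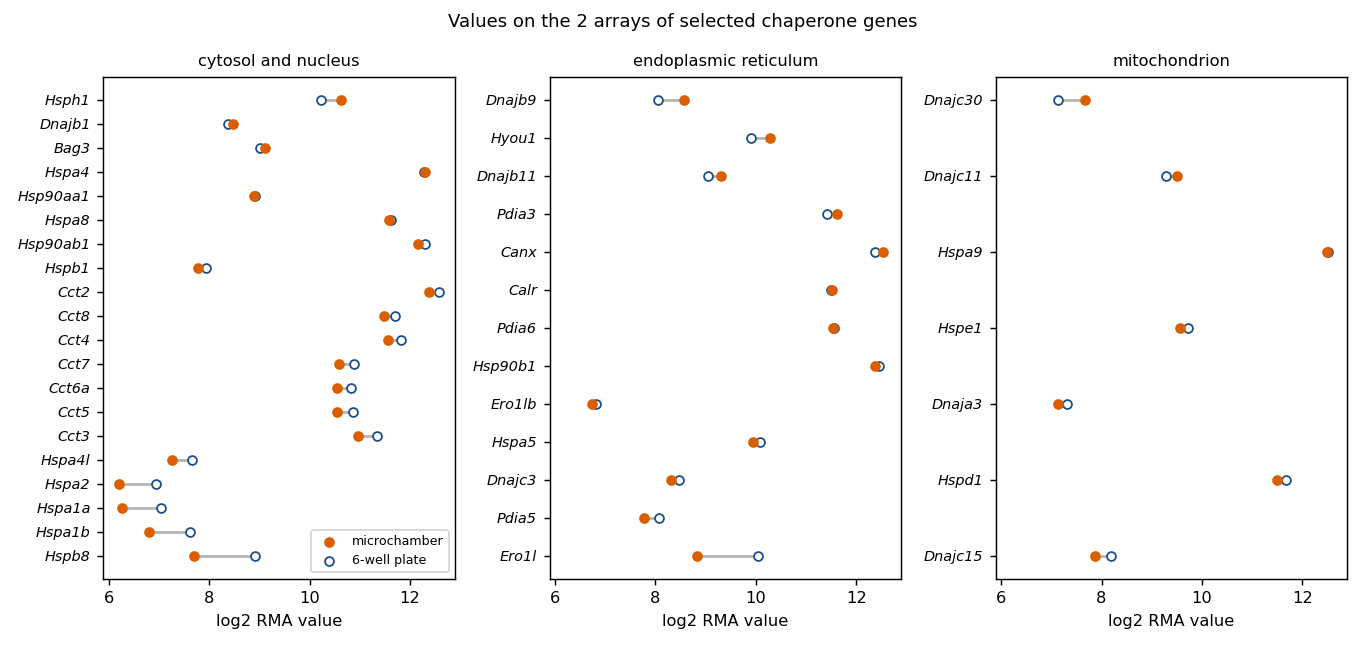
Log2 RMA values of selected chaperone genes in the microchamber (filled circles) and on the 6-well plate (open circles), ordered by difference within each compartment. Ero1l and Hspb8 have the widest gaps, and the 7 CCT subunits plotted sit to the left of their plate values.

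Hsp90 acts late in folding, on kinases and receptors. Its genes were nearly level. Hsp90aa1, the inducible form, had 8.89 in the microchamber and 8.92 on the plate. Hsp90ab1, the constitutive form, had 12.16 in the microchamber and 12.30 on the plate, a difference of -0.14.

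DnaJ proteins carry the J domain that switches on the ATPase of Hsp70, and each brings it to particular clients or places. Over all compartments 24 of 41 lay below 0, with a median of -0.03. Dnajb1, the classic heat-inducible partner of Hsp70, had 8.48 in the microchamber and 8.37 on the plate, a difference of 0.11. This sign is opposite to those of the inducible Hspa1a and Hspa1b, but 0.11 is below the 0.21 seen among probe sets of a gene. Dnajb5 had 6.78 in the microchamber and 7.26 on the plate, the lowest cytosolic DnaJ gene at -0.48. Dnajb4 lay at -0.33, Dnaja4 at -0.32 and Dnaja2 at -0.11.

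Among DnaJ genes of more specialised tasks, Dnajc27, a Rab-like GTPase with a J domain, had 7.01 in the microchamber and 6.47 on the plate, which is 1.46-fold higher. Dnajc21, which acts in ribosome biogenesis, had 11.04 in the microchamber and 10.78 on the plate, and Dnajc24, of diphthamide synthesis, lay at 0.23. The spliceosome-associated Dnajc8 lay at -0.28 and the ribosome-associated Dnajc2 at -0.23. The remaining cytosolic genes of this class, Dnajc7 and Dnajc9, both lay at -0.02.

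**Figure D3:**
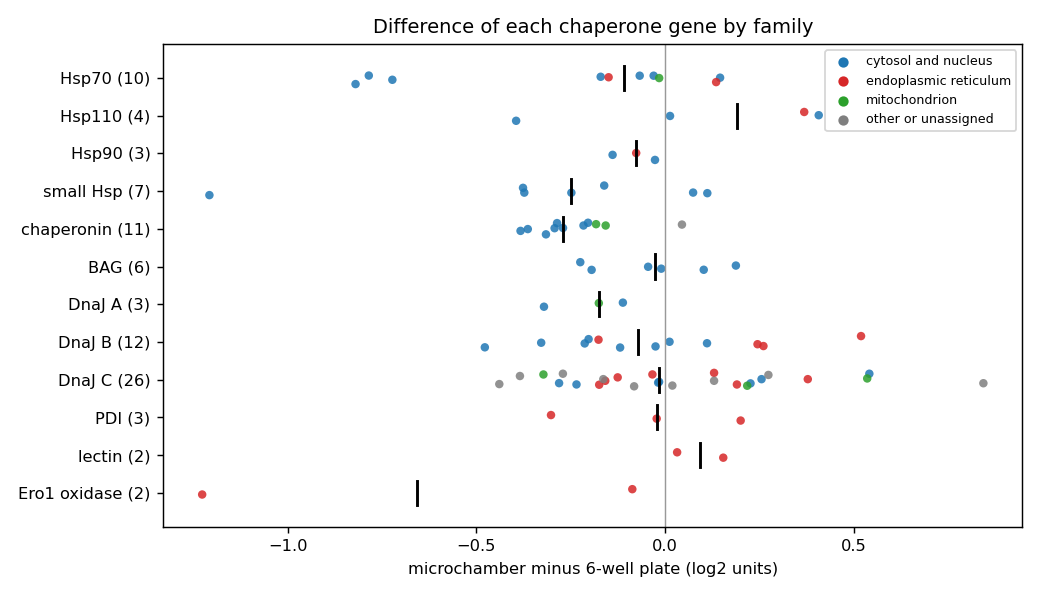
Difference of each chaperone gene (microchamber minus 6-well plate, log2 units) by protein family, with the number of genes in brackets, a black line at the median and colour for the compartment. The cytosolic chaperonin subunits form a tight group between -0.38 and -0.20, while DnaJ C genes spread from -0.44 to 0.84.

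In the ER the largest difference belonged to the oxidase Ero1l (current symbol Ero1a, chromosome 14, 45283087 to 45318572, GRCm38), which passes electrons from disulphide isomerases to oxygen and is a known target of the hypoxia factor HIF. It had 8.83 in the microchamber and 10.05 on the plate, which is 2.34-fold lower. Its 2 probe sets were 0.01 apart, at -1.23 and -1.22. The second oxidase, Ero1lb, had 6.73 in the microchamber and 6.82 on the plate, a difference of -0.09. The Ero1l window is shown because of this difference, with the core letters of the hypoxia response element, ACGTG or GCGTG on either strand, in capitals. The A form was at positions -63 to -59 on the reverse strand, and the G form at -128 to -124 and at -88 to -84.
Ero1l (chr14:45318523-45318822, minus strand): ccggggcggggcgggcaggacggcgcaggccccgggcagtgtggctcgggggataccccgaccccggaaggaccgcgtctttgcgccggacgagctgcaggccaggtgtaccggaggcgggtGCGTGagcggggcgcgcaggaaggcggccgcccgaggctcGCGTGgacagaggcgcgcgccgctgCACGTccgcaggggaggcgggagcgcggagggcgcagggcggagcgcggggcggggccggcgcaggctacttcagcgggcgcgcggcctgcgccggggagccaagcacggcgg

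The main chaperones of the ER lumen did not follow Ero1l. Hspa5 (BiP), the ER Hsp70, had 9.94 in the microchamber and 10.09 on the plate, a difference of -0.15. Hsp90b1 (Grp94) had 12.38 in the microchamber and 12.46 on the plate, a difference of -0.08. Calr (calreticulin) lay at 0.03 and Canx (calnexin), the lectins that hold glycoproteins during folding, at 0.15. Hyou1, the exchange factor of BiP whose name records its induction by hypoxia, had 10.28 in the microchamber and 9.91 on the plate, which is 1.29-fold higher.

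Of the disulphide isomerases, which form and shuffle disulphide bonds, Pdia3 had 11.62 in the microchamber and 11.41 on the plate, a difference of 0.20. Pdia6 lay at -0.02, and Pdia5 had 7.78 in the microchamber and 8.08 on the plate, a difference of -0.30. P4hb, the isomerase that Ero1l recharges and one that the symbol rule leaves out, had 11.31 in the microchamber and 11.28 on the plate.

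Of the 11 ER genes with a J domain, 6 lay above 0 and 5 below. Dnajb9 (ERdj4), which assists ER-associated degradation and restrains the stress sensor IRE1, had 8.58 in the microchamber and 8.06 on the plate, which is 1.43-fold higher. Dnajb11 (ERdj3), which delivers clients to BiP, had 9.30 in the microchamber and 9.06 on the plate. Dnajc14, of the ER membrane with its J domain on the cytosolic side, had 8.58 in the microchamber and 8.20 on the plate, a difference of 0.38, while a probe set shared with Ormdl2 lay at 0.02. Dnajb12, which likewise faces the cytosol, lay at 0.26, Dnajc1 at 0.19 and Dnajc25 at 0.13. Below 0 were Dnajb14 and Dnajc18, also of the ER membrane, at -0.18 and -0.17, Dnajc3 (p58IPK) at -0.16, the disulphide reductase Dnajc10 (ERdj5) at -0.13 and Dnajc16 at -0.03. Hspa13, a microsomal relative of Hsp70 without a J domain, lay at 0.14. Without the oxidases the ER median was 0.08.

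The ER stress element is the promoter sequence through which ATF6 raises ER chaperones. An exact match on either strand was found for 7 of the 19 ER genes with a RefSeq promoter. These 7 genes lay between -0.16 and 0.15 with a median of -0.08. The 12 ER genes without it lay between -1.23 and 0.52 with a median of 0.16. Some of these 12 matched other motifs that were searched. Dnajb11, at 0.25, matched the ER stress element II, and Dnajc25, at 0.13, the core of the unfolded protein response element. The 12 are therefore not a group free of such elements. Hyou1, Hspa13 and Dnajc18, at 0.37, 0.14 and -0.17, had no RefSeq promoter and are in neither group. The matches to the ER stress element are printed because they are shared by the genes above. The fixed letters of the element, at both of its ends, are in capitals. The free bases between them are in lower case, and each match is read in the direction of the element.
Hspa5, forward strand, positions -65 to -47: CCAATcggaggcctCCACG
Hsp90b1, forward strand, positions -212 to -194: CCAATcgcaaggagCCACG
Hsp90b1, reverse strand, positions -107 to -89: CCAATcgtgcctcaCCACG
Calr, reverse strand, positions -162 to -144: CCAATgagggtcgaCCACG
Canx, forward strand, positions -145 to -127: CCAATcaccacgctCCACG
Pdia6, forward strand, positions -98 to -80: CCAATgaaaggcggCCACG
Dnajc3, forward strand, positions -105 to -87: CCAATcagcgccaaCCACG
Ero1lb, reverse strand, positions -201 to -183: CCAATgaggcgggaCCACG

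The whole windows of the ER Hsp70 and Hsp90 genes place these matches in context, with the same letters in capitals and the spacer included.
Hspa5 (chr2:34771840-34772139, plus strand): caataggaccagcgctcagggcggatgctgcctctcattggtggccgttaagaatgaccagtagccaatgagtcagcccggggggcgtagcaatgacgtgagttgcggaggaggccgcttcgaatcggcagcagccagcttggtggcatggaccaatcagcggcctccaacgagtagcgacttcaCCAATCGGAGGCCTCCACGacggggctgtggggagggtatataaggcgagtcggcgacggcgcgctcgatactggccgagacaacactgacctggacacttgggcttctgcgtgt
Hsp90b1 (chr10:86705395-86705694, minus strand): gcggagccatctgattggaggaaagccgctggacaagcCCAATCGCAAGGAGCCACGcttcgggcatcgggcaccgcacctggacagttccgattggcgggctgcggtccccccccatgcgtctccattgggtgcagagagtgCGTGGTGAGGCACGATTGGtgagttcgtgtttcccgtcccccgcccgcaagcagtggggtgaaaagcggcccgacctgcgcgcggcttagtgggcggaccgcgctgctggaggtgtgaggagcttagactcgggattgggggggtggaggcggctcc

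Mitochondrial chaperones differed little. Hspd1 (Hsp60) had 11.50 in the microchamber and 11.68 on the plate, and Hspe1 (Hsp10), the lid of its ring, had 9.57 in the microchamber and 9.72 on the plate. Their differences, -0.18 and -0.16, were alike. These genes lie head to head on chromosome 1, and a RefSeq window of Hspd1 overlaps that of Hspe1 by 285 bases. A second Hspd1 window, chr1:55088194-55088493, held no heat shock element. Hspa9 (mortalin), the motor of protein import, had 12.50 in the microchamber and 12.52 on the plate. The overlapping window is shown on the Hspd1 strand, with heat shock elements of 3 units, the paired form with a further unit, in capitals. Matches on opposite strands overlap, at positions -144 to -132 and -139 to -127.
Hspd1 (chr1:55087883-55088182, minus strand): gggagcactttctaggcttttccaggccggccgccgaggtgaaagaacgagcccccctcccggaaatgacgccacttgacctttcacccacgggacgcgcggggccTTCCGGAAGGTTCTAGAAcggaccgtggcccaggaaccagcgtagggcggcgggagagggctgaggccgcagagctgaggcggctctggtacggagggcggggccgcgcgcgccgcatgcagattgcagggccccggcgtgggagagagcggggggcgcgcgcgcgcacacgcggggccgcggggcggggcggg

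Mitochondrial DnaJ genes spread more widely. Dnajc30 had 7.67 in the microchamber and 7.13 on the plate, which is 1.45-fold higher, but a probe set shared with Wbscr22 lay at -0.04. Dnajc11, which belongs to the complex that shapes cristae, had 9.51 in the microchamber and 9.29 on the plate. Dnajc15, of the inner membrane, had 7.87 in the microchamber and 8.19 on the plate, a difference of -0.32. The 3 probe sets of Dnaja3 (Tid1) ran from -0.33 to -0.03.

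Of genes placed elsewhere, Dnajc6 (auxilin), which strips clathrin from vesicles with Hsp70, had 9.32 in the microchamber and 8.47 on the plate. At 1.80-fold it was the highest of the 89 genes. Dnajc13, of endosomes, had 10.02 in the microchamber and 9.75 on the plate, and Dnajc5, the cysteine string protein of vesicles, was level at 0.02. Dnajc22 lay at -0.44, Dnajc12 at -0.38, Dnajc4 at -0.27, Dnajc28 at -0.16 and Dnajc5b at 0.13.

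**Figure D4:**
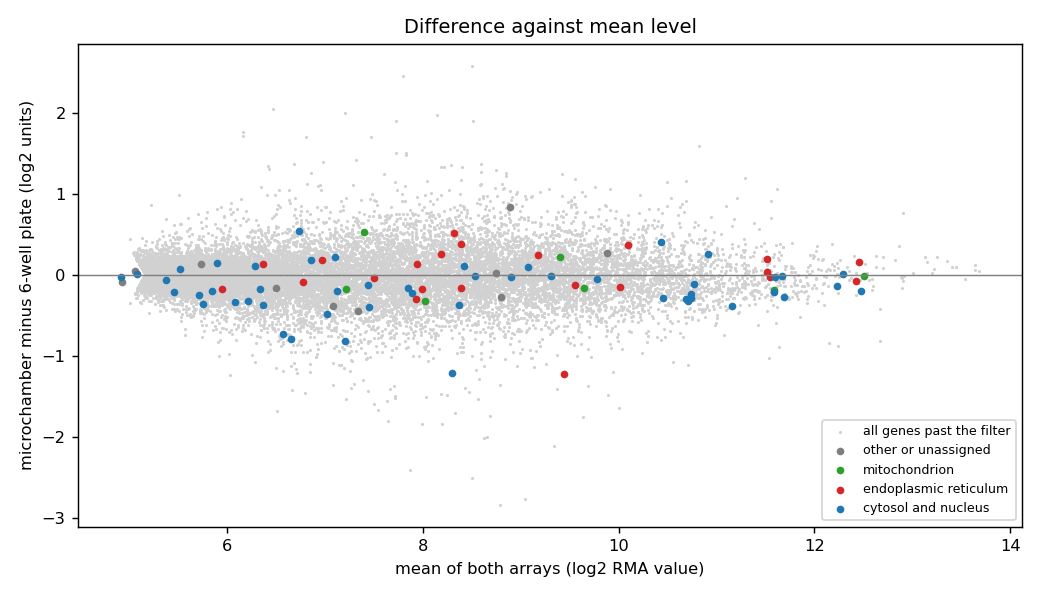
Difference (microchamber minus 6-well plate, log2 units) against the mean of both arrays (log2 RMA value) for the 19180 genes past the filter in grey and the 89 chaperone genes in colour by compartment. The spread of all genes is narrow at low level, and Ero1l and Hspb8 are the 2 coloured points below -1.

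Motif matches were unevenly spread over the compartments. Each is a description of letters on either strand and no evidence of binding. Of the 89 genes, 73 had a RefSeq promoter, and a gene counted when any of its windows held a match. The 73 include genes under the filter. The paired heat shock element was found for 12 of 44 cytosolic and nuclear genes (27.3%) and for 0 of 19 ER genes. Its share was 7.57% among the 12698 genes past the filter with a promoter under the same symbol. The ER stress element was found for 36.8% of ER genes and 0 cytosolic ones, against 0.150% of those genes. That share is 19 genes and includes ER members of this set. The 3-unit heat shock element, which contains the paired one, was found for Hsph1, Dnajb6, Hspd1 and Hspe1, against 0.599%. Over all 32851 windows in the table the shares were 7.86% for the paired heat shock element, 0.603% for the 3-unit form and 0.119% for the ER stress element.

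In the cytosol, genes with and without a paired heat shock element had the same median and different ranges. The 12 cytosolic genes with a paired heat shock element ran from -1.21 for Hspb8 to 0.54 for Dnajc27 with a median of -0.18. The 32 without it ran from -0.72 to 0.26, also with a median of -0.18. The heat-inducible Dnajb1 was among these, so an exact match does not separate heat-inducible genes from others. Of the cytosolic genes with the 3-unit form, Hsph1 lay at 0.41 and Dnajb6 at -0.12, while a probe set shared by Dnajb6 and Gm5129 lay at 0.18. The core letters of the hypoxia element are short, and the part of base composition in their shares was not tested. ACGTG was found for 57.9% of ER and 20.5% of cytosolic genes, against 26.2% of the 12698 genes past the filter with a promoter. GCGTG was found for 68.4% and 56.8%, against 48.3%. Over all windows the shares were 19.6% for ACGTG and 32.4% for GCGTG. The end of the ER stress element, read on the other strand, can overlap these cores. The 11 ER genes with ACGTG ran from -1.23 for Ero1l to 0.52 for Dnajb9.

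**Figure D5:**
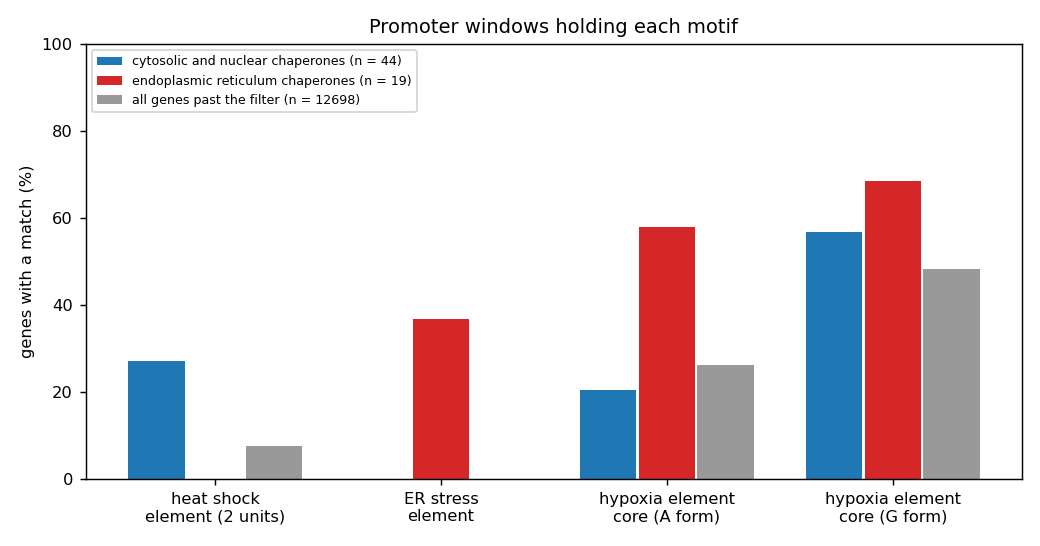
Share of genes with a match to each motif in a RefSeq promoter window, on either strand. Groups are cytosolic and nuclear chaperones, ER chaperones and the 12698 genes past the filter with a promoter under the same symbol. The ER stress element appears for 36.8% of ER genes and for no cytosolic gene.

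Genes that work with the chaperones were also taken from lists and counted past the filter, where 52.3% of all genes lay below 0 with a median of -0.01. Of 19 cytosolic co-chaperones of Hsp70 and Hsp90, 13 lay below 0 with a median of -0.21 and none reached 0.5 log2 units. Cdc37, which brings kinases to Hsp90, was the lowest, with 9.78 in the microchamber and 10.27 on the plate, and its relative Cdc37l1 was the highest at 0.43. Stip1 (Hop), which joins Hsp70 to Hsp90, lay at -0.28. Of 8 prefoldin subunits and other CCT partners, without Tcp1, 5 lay below 0 with a median of -0.10. The prefoldin subunit Vbp1 was lowest at -0.42. Hsf1, the factor that drives heat shock genes, had 8.71 in the microchamber and 8.44 on the plate, and Hsf2 lay at 0.05. Of the other heat shock factors, Hsf4 lay at -0.24 and Hsf5 at -0.49, and the median of the 4 was -0.10.

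Of 16 sensors and factors of the unfolded protein response, 4 lay below 0 and 12 above, and the median was 0.23. By at least 0.5 log2 units, 3 of the 16 were higher (18.8%), against 3.59% of all genes past the filter and 5.51% of genes at or above the median level. The list was chosen with earlier results of these data known, so this share is a description only. Trib3, a pseudokinase induced by this response, had 8.62 in the microchamber and 7.97 on the plate. Atf4, the factor translated when the sensor PERK is active, had 10.81 in the microchamber and 10.29 on the plate, and Ppp1r15b, a regulator of the phosphatase that reverses PERK signalling, lay at 0.51. Atf6 was the lowest at -0.28, and Xbp1, the factor activated by IRE1, lay at -0.15.

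Other ER helpers were mixed, with 15 of 25 above 0 and a median of 0.09. Sel1l, of the ER degradation complex, had 9.78 in the microchamber and 9.07 on the plate, a difference of 0.71. Sil1, an exchange factor of BiP like Hyou1, had 7.71 in the microchamber and 8.42 on the plate, a difference of -0.71. Of 15 other disulphide enzymes, 8 lay below 0 with a median of -0.04, from Gpx8 at -0.40 to Tmx3 at 0.65. Of 19 genes of mitochondrial protein quality control, 14 lay below 0 with a median of -0.13. The protease Lonp1 was the lowest at -0.48, and Atf5, the factor of the mitochondrial stress response, was the highest, with 8.54 in the microchamber and 7.80 on the plate.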

How the data were processed

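Per the series design text, the authors background-corrected the probe intensities, summarised them per transcript cluster (probe set) and normalized them with RMA, and named a filter on raw signal. The deposited values are log2. RMA gives both arrays nearly the same distribution, so a shift of most genes would be hidden. Per the submitters' processing notes, Expression Console 1.4.1 and Transcriptome Analysis Console 3.0 (Affymetrix) were used, and the file headers name mm10. The authors' deposited table adds a fold change as a ratio without direction and a log2 fold change as plate minus chamber. This log2 fold change, opposite in sign to the differences given here, equalled the difference of the deposited values within 1e-05, and both files held the same values. No depth applies to arrays, and their number limits the precision.

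Of 33793 probe sets, 24708 had 1 symbol, and those of a gene were averaged. Of the 89 genes, 87 matched a current RefSeq symbol and 2 a synonym. The members, compartments and lists were chosen with earlier results of these data known, and 2 list genes (Serpinh1 and Dnlz) were moved to the list of their compartment, and Cct8l1 was placed, after seeing values. Genes named are the 5 highest and 5 lowest differences per compartment, the highest and lowest per family and 26 members fixed by name. Dnaja1 and Pdia4, also fixed by name, have shared probe sets only. Other members are named where a family is described whole, and genes outside the set where they are extremes or were picked for their role after seeing values. Without replicates no test was made. Counting and trend removal were tested on simulated data. Python 3.11.15, pandas 2.3.3 and statsmodels 0.14.6 were used.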

Additional observations from a re-analysis of the deposited data

How the results depend on the processing

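Medians in the text cover all members. Past the filter they were -0.13 for all members and -0.20 for the cytosol. Results were recomputed with the filter at the median, after centring on the median of all genes (a shift of 0.01), after removing the trend of difference on mean level (span 0.3), with the brightest probe set, from the series value table and with shared probe sets under their first symbol. The medians of the cytosol, the ER and mitochondria each moved by less than 0.1. That of other or unassigned places was not recomputed under these settings. The median of all members stayed between -0.13 and -0.09, that of the cytosol between -0.20 and -0.13 including the setting without CCT, that of the ER between 0.01 and 0.08 including the setting without the Ero1 oxidases (both settings were chosen after seeing the data), and that of mitochondria between -0.16 and -0.12. Counts at 2-fold did not change under any of these settings, and counts at 0.5 and 0.2 log2 units stayed within 1.5 times. Among named genes, Hspa1a moved most, to -0.42 when its shared probe set was averaged in, which lowered the count at 0.5 log2 units lower to 4. Hspa1b, the second symbol of that probe set, was left unchanged by this rule. Dnajc14 moved to 0.20 in the same setting. Signs of single genes were checked only for the compartment and family extremes and the members fixed by name. Among these, Hspa8, Hspa9 and Pdia6, which lay close to 0, changed sign under at least 1 setting. No paired analysis was possible because each condition has 1 array. Differences are compressed at low signal, where the 4795 dimmest genes had a standard deviation of 0.13, against 0.35 for the 4795 brightest, so small values of dim genes do not show equal expression.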

Other observations

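Another 8 chaperone symbols appear only in probe sets that also carry a second gene, so their values cannot be given to 1 gene and they were left out of the counts. The probe set of Dnaja1, a heat-inducible partner of Hsp70, and Mir207 had 8.53 in the microchamber and 8.30 on the plate. That of Pdia4, a disulphide isomerase of the ER, and Mir704 had 9.18 in the microchamber and 9.09 on the plate. That of Hspa14, a ribosome-associated Hsp70, and a second locus had 8.70 in the microchamber and 8.92 on the plate. Over the 18 shared probe sets that hold a chaperone symbol, differences ran from -0.34, for one shared by Snord14e and Hspa8, to 0.23 for that of Dnaja1.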
